A study of Mus with 8 samples.

Results

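Toll-like receptors are the innate immune receptors with which monocytes, macrophages and dendritic cells detect microbial products. The 10 Toll-like receptor genes described here were taken by Ensembl ID from a table of 17640 gene IDs, and all 10 were present: Tlr1, Tlr2, Tlr3, Tlr4, Tlr5, Tlr6, Tlr7, Tlr8, Tlr9 and Tlr13. The table holds transcript counts of mouse bone marrow monocytes from 8 libraries, with 2 libraries in each of 4 groups. Control cells came from C57BL/6 mice with the Vav-iCre transgene, in which the Vav promoter drives Cre recombinase in blood-forming cells. The other cells came from C57BL/6 Vav-iCre mice with the Jak2 V617F knock-in, an activating kinase mutation of myeloproliferative neoplasm, so both genotypes carry Cre. Each genotype was embedded in a viscous or an elastic stiff hydrogel, marked VLVG and NbTz in the titles. All 4 groups received the same factors, GM-CSF at 100 ng/mL, IL4 at 200 ng/mL and PGE2 at 100 ng/mL, and were collected on day 3. The labels give no age or sex of the animals, and do not say whether a library came from 1 animal or a pool. The comparisons ask whether receptor transcripts differed between the gels, between the genotypes, and whether the gel difference depended on genotype. Elasticity cannot be told apart from other properties in which these gel materials differ.

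As background, a Toll-like receptor binds its ligand with a horseshoe-shaped repeat domain and signals through an inner TIR domain. Recruited adaptors (MyD88 or TRIF) then activate NF-kB and interferon regulatory factors, which switch on inflammatory cytokines and type I interferon. Of the members, 5 act mainly at the cell surface. Tlr2 pairs with Tlr1 for triacylated and with Tlr6 for diacylated bacterial lipopeptides, Tlr4 recognises lipopolysaccharide and Tlr5 recognises flagellin. The other 5 act in endosomes and read nucleic acids. Tlr3 binds double-stranded RNA, Tlr7 responds to single-stranded RNA and its breakdown products, Tlr9 binds unmethylated CpG DNA and Tlr13 recognises bacterial ribosomal RNA.

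The Ensembl IDs in the table are ENSMUSG00000044827 (Tlr1), ENSMUSG00000027995 (Tlr2), ENSMUSG00000031639 (Tlr3), ENSMUSG00000039005 (Tlr4), ENSMUSG00000079164 (Tlr5), ENSMUSG00000051498 (Tlr6), ENSMUSG00000044583 (Tlr7), ENSMUSG00000040522 (Tlr8), ENSMUSG00000045322 (Tlr9) and ENSMUSG00000033777 (Tlr13). In the mouse build GRCm38 (RefSeq annotation, GRCm38.p6), Tlr1 lies on chromosome 5 at 64924680 to 64933600 and Tlr6 beside it at 64953092 to 64970942. The gap between them is 19491 bases and holds no other annotated gene. Tlr8 lies on chromosome X at 167241123 to 167264329 and Tlr7 beside it at 167303380 to 167330574, again with no annotated gene in the 39050 bases between them. Tlr13 is also on chromosome X, at 106143275 to 106160493. Tlr2 is on chromosome 3 (83836272 to 83841824), Tlr3 on chromosome 8 (45395665 to 45411075) and Tlr4 on chromosome 4 (66827551 to 66846581). Tlr5 is on chromosome 1 (182954752 to 182976044) and Tlr9 on chromosome 9 (106222598 to 106226876). All 10 are annotated as protein-coding.

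Libraries held between 30632355 and 38408851 counts, of which the 10 receptors took 0.0909% to 0.126%. Pairs of 1 viscous and 1 elastic library carry the same final number in their titles, written here as W1 and W2 for control cells and J1 and J2 for Jak2 V617F cells, with the lower number first. What the number stands for is not in the labels, and nothing there says that replicates were separate animals or cultures. All p-values therefore set differences between groups only against the spread between replicate libraries, or between their sums, and that spread may be technical. Results that rest on both libraries numbered W1 are given with and without them. Whether W1 or W2 is the more unusual control number was not tested. The root mean square difference between replicates over all IDs was 0.964 and 0.967 log2 CPM in control cells (viscous and elastic gel) and 0.683 and 0.556 in Jak2 V617F cells. The reference table pairs 0 of its 49997 genes with an Ensembl ID. Genes outside the 10 members therefore could not be named, and adaptors, cytokine targets and cell type markers were not analysed here. In bulk RNA, fewer cells of a type and less RNA per cell cannot be told apart.

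**Figure D1:**
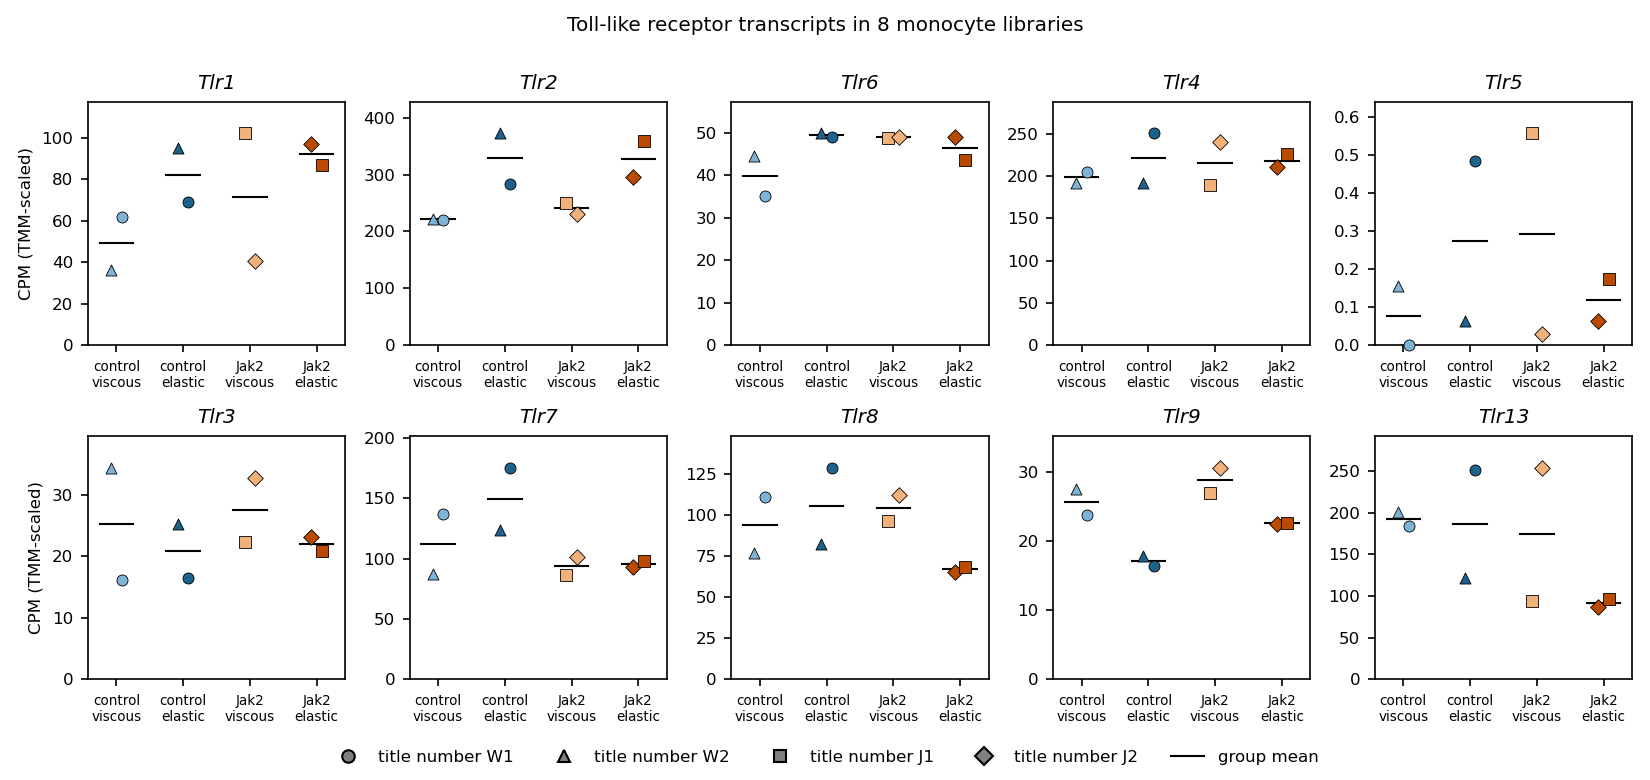
Level of each receptor (CPM, TMM-scaled, linear axes from 0) in each library by group. Symbols mark the title number and lines the mean of 2 libraries. Tlr2 is higher and Tlr9 lower in all 4 elastic libraries than in all 4 viscous ones, whereas Tlr1, Tlr3 and Tlr13 spread widely within groups.

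Tlr2 was the surface receptor that separated the gels. It is the shared partner of the lipopeptide-sensing pairs. In viscous gel it stood at 221.0 and 221.3 CPM (counts per 1000000 counts, with library totals scaled by TMM, the trimmed mean of M-values) in control libraries W1 and W2, and at 249.6 and 231.6 CPM in Jak2 V617F libraries J1 and J2. In elastic gel the same numbers gave 284.4, 372.7, 359.8 and 296.1 CPM. All 4 elastic libraries lay above all 4 viscous ones, which held for 2.07% of the 14785 IDs tested. The log2 fold change of elastic over viscous gel, averaged over the genotypes, was 0.51 (SE 0.13, 95% interval 0.20 to 0.82), or 1.42-fold. By edgeR's quasi-likelihood test the unadjusted p was 0.0063 and the Benjamini-Hochberg adjusted p was 0.537. By DESeq2 the adjusted p was 0.0405, with a log2 fold change of 0.52 (SE 0.14).

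Tlr9, the CpG DNA receptor, differed between the gels in the opposite direction. Its level in viscous gel was 23.8 and 27.6 CPM in control libraries W1 and W2 and 27.1 and 30.7 CPM in Jak2 V617F libraries J1 and J2. In elastic gel it was 16.5, 17.9, 22.7 and 22.5 CPM in the same order. Every elastic library lay below every viscous one, as for 1.66% of IDs tested, although the step from the highest elastic (22.7) to the lowest viscous library (23.8) was small. The averaged log2 fold change was −0.47 (SE 0.096, 95% interval −0.70 to −0.24), or 1.38-fold lower in elastic gel. The edgeR adjusted p was 0.430, with an unadjusted p of 0.0022, and DESeq2 gave an adjusted p of 0.0374. Tlr9 had the smallest replicate spread of the 10 members, with a pooled SD of 0.107 log2 CPM against a median of 0.181 over 2013 IDs of like level (within 0.5 log2 CPM).

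Over both genotypes, edgeR thus called 0 of 10 receptors for the gel difference, as it called 0% of all IDs. At an unadjusted p under 0.05 it had 2 of 10, against 6.28% of all IDs: Tlr2 higher (2.9% of IDs were higher) and Tlr9 lower (3.38% were lower). With the title number as a block, edgeR also called 0 of 10 (0.0338% of IDs). limma-voom called 0 of 10 (0 of 14785 IDs). At an unadjusted p under 0.05 it also had 2 of 10, against 925 of 14785 IDs. DESeq2 called 2 of 10, where it called 0.906% of all IDs. The median log2 fold change of the members was 0.10, against −0.0043 over all IDs, with 6 members higher and 4 lower in elastic gel. This median turned to −0.13 (5 higher, 5 lower) without both W1 libraries. With 1 library left out it was −0.087 without W1 in elastic gel, −0.026 without W1 in viscous gel and −0.057 without J1 in elastic gel, so it has no stable direction. Without both W1 libraries, edgeR called 0 of 10, and Tlr2 stood at 0.60 (SE 0.12, adjusted p = 0.207) and Tlr9 at −0.49 (SE 0.10, adjusted p = 0.212). Tlr7 was then at 0.27 and Tlr8 at −0.27, with 1 control library left in each gel. With all libraries the averaged log2 fold changes by edgeR were 0.22 for Tlr7 (SE 0.18) and −0.24 for Tlr8 (SE 0.18). They were −0.49 for Tlr13 (SE 0.35) and 0.27 for Tlr5 (SE 1.19). The unadjusted edgeR p was 0.27 for Tlr7, 0.24 for Tlr8, 0.21 for Tlr13 and 0.83 for Tlr5. Both tools used the same libraries, so the DESeq2 calls are another estimate of the spread and not further evidence.

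The remaining surface receptors showed smaller or less repeatable gel differences. Tlr6, the Tlr2 partner for diacylated lipopeptides, ranged only from 35.1 to 49.8 CPM over the 8 libraries. Its averaged log2 fold change was 0.12 (95% interval −0.12 to 0.36). Tlr4, the lipopolysaccharide receptor, had the narrowest range over the 8 libraries, 1.33-fold, with 189.0 to 250.5 CPM and 6148 to 8579 counts. Its replicate SD of 0.191 log2 CPM was nevertheless above those of Tlr2, Tlr6 and Tlr9. For Tlr4 the averaged log2 fold change was 0.088 (95% interval −0.23 to 0.41). This does not show that the gels were alike for Tlr4.

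Tlr1, the partner for triacylated lipopeptides, varied widely between replicates as well as between gels. In viscous gel it stood at 36.3 CPM in control library W2 and 40.8 CPM in Jak2 V617F library J2, but at 61.9 CPM in control library W1 and 102.3 CPM in Jak2 V617F library J1. In elastic gel the range was narrower, from 69.0 to 97.0 CPM. The gels overlapped, because the highest library of all was the viscous J1. Replicates differed 2.51-fold in Jak2 V617F cells in viscous gel and 1.11-fold in elastic gel. The averaged gel difference was 0.55 on the log2 scale (95% interval −0.21 to 1.32, edgeR adjusted p = 0.902). Tlr1 and Tlr6 are paralogs, and how many reads fit both genes was not tested, so their split is uncertain.

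Tlr5, the flagellin receptor, was at the limit of detection. Its counts were 5, 2, 22, 1, 2 and 6 in control W2 viscous and elastic, Jak2 V617F J1 viscous, J2 viscous, J2 elastic and J1 elastic. Control library W1 had 0 counts in viscous and 15 in elastic gel. A count of 0 in that library allows up to 3 counts, or 0.0857 CPM before scaling, a one-sided limit for counting error only. The intervals given next are two-sided. The 22 counts have an exact Poisson 95% interval of 13.8 to 33.3, so the 1 count of the other library of that group (interval 0.0253 to 5.57) lies outside counting error. Tlr5 passed the low-count filter through 1 elastic control and 1 viscous Jak2 V617F library, and no gel or genotype difference was detectable at this depth.

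Among the other endosomal receptors, Tlr3 followed the title number more than the gel. In control cells the double-stranded RNA receptor stood at 16.2 and 16.5 CPM in libraries W1 (viscous and elastic) and at 34.5 and 25.2 CPM in libraries W2. In Jak2 V617F cells it was 22.3 and 21.0 CPM for J1 and 32.8 and 23.2 CPM for J2. Elastic gel was lower in 3 of 4 numbers, and the averaged log2 fold change was −0.30 (95% interval −0.96 to 0.36). The 2 libraries highest in Tlr3, W2 and J2 in viscous gel, were the 2 lowest in Tlr1. This was picked out after the values were seen, and a relation between the 2 genes was not tested.

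Tlr13, the ribosomal RNA receptor, had the widest range over the libraries of the members with counts in all of them, leaving out Tlr5, at 2.94-fold. It stood at 184.4 (W1) and 201.3 CPM (W2) in control cells in viscous gel, and at 251.6 and 121.3 CPM in elastic gel. In Jak2 V617F cells it was 94.1 (J1) and 254.2 CPM (J2) in viscous gel, and 97.0 and 86.4 CPM in elastic gel. The 3 Jak2 V617F libraries other than viscous J2 thus lay below every control library, while that library was the highest of all 8. Between title numbers the gel difference pointed both ways, from 1.36-fold higher (W1) to 2.94-fold lower (J2) in elastic gel. Its replicate SD of 0.633 log2 CPM was larger than that of 95.7% of 1212 IDs of like level. For Tlr1 the corresponding share was 94.4% and for Tlr3 90.7%.

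**Figure D2:**
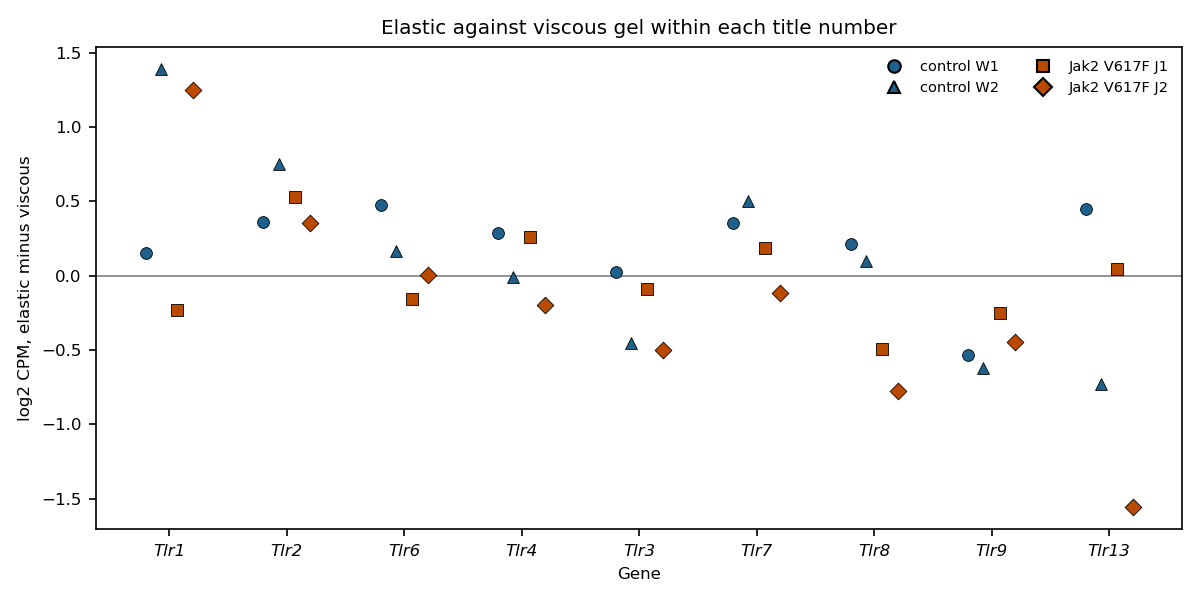
Difference in log2 CPM (prior count 2) between the elastic and the viscous library of each title number, for the 9 receptors with at least 500 counts in every library; blue marks control and orange Jak2 V617F. Tlr2 lies above 0 and Tlr9 below 0 for all 4 numbers, and Tlr8 is above 0 for both control numbers and below 0 for both Jak2 V617F numbers.

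Within each title number, Tlr2 was higher in elastic gel in 4 of 4, by 1.29-fold (W1), 1.68-fold (W2), 1.44-fold (J1) and 1.28-fold (J2). Such agreement was found for 10.6% of IDs. Tlr9 was lower in 4 of 4, by 1.44-fold, 1.54-fold, 1.19-fold and 1.36-fold in the same order, as were 10.8% of IDs. Tlr7 was higher in elastic gel in 3 of 4 numbers and Tlr1 in 3 of 4. Tlr6 was also higher in 3 of 4, though its value for J2 was nearly 0 (0.0022).

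Taken genotype by genotype, Tlr2 and Tlr9 kept their direction. In control cells the log2 fold change of Tlr2 was 0.57 (SE 0.18), with an unadjusted p of 0.0179 by edgeR, and that of Tlr9 was −0.58 (SE 0.14), with 0.0044. In Jak2 V617F cells Tlr2 gave 0.45 (SE 0.18; unadjusted p = 0.0459 by edgeR) and Tlr9 −0.35 (SE 0.14; 0.0371). Without W2 in elastic gel, Tlr2 in control cells was 0.37 (unadjusted p = 0.0986 by edgeR). Without J1 in elastic gel, Tlr2 in Jak2 V617F cells was 0.30 (unadjusted p = 0.251), and without J2 in viscous gel Tlr9 was −0.26 (unadjusted p = 0.185). In edgeR the adjusted p was 0.985 for both in control cells and 1 for both in Jak2 V617F cells. Called receptors numbered 0 of 10 in either genotype, by edgeR (0% of all IDs), limma-voom and DESeq2 (0.237% of all IDs in each genotype). At an unadjusted edgeR p under 0.05 there were 2 of 10 in control cells (4.85% of IDs), 1 higher (2.31%) and 1 lower (2.54%). In Jak2 V617F cells there were 3 of 10 (3.08% of IDs), 1 higher (1.31%) and 2 lower (1.77%).

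The third receptor in Jak2 V617F cells was Tlr8, an endosomal receptor. Its level was 96.5 (J1) and 112.3 CPM (J2) in viscous gel and 68.5 and 65.5 CPM in elastic gel. In control cells it was 111.3 (W1) and 77.1 CPM (W2) in viscous gel and 129.0 and 82.6 CPM in elastic gel, so title number W1 was high in both gels and the gels overlapped. The gel difference in Jak2 V617F cells was −0.64 on the log2 scale (SE 0.26, 95% interval −1.26 to −0.018), or 1.56-fold lower in elastic gel, with an unadjusted p of 0.0453 and an adjusted p of 1 by edgeR. With 1 Jak2 V617F library left out the gel difference ran from −0.74 (without J1 in viscous gel) to −0.53 (without J2 in viscous gel). In control cells Tlr8 was higher in elastic gel within both numbers, by 1.16-fold and 1.07-fold. This pattern, up in both control numbers and down in both Jak2 V617F numbers, was shown by 1 of 10 receptors and by 4.86% of all IDs. The opposite pattern was shown by 0 of 10 receptors and by 5.09% of all IDs.

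The test of whether the gel difference depended on genotype called 0 of 10 receptors by edgeR (0% of all IDs), with 0 of 10 at unadjusted p under 0.05 (1.72% of IDs). limma-voom and DESeq2 (0.0135% of IDs) also called 0. The smallest p was that of Tlr8. Its gel effect in Jak2 V617F minus that in control cells was −0.81 on the log2 scale (SE 0.37, 95% interval −1.68 to 0.070), with an unadjusted p of 0.0657 and an adjusted p of 1 by edgeR. Without both W1 libraries the value was −0.74 (SE 0.20, unadjusted p = 0.0120, edgeR adjusted p = 1), with 1 control library left in each gel. With 1 library left out it ranged from −1.10 (without W1 in viscous gel) to −0.45 (without W1 in elastic gel, unadjusted p = 0.196). For 9 of 10 members the estimate was negative, with a median of −0.38 against −0.029 over all IDs. The share of all IDs with a negative estimate was not counted, and the members were measured in the same libraries. Without both W1 libraries 7 of 10 were negative with a median of −0.22, and without J2 in viscous gel 6 of 10, again with a median of −0.22.

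**Figure D3:**
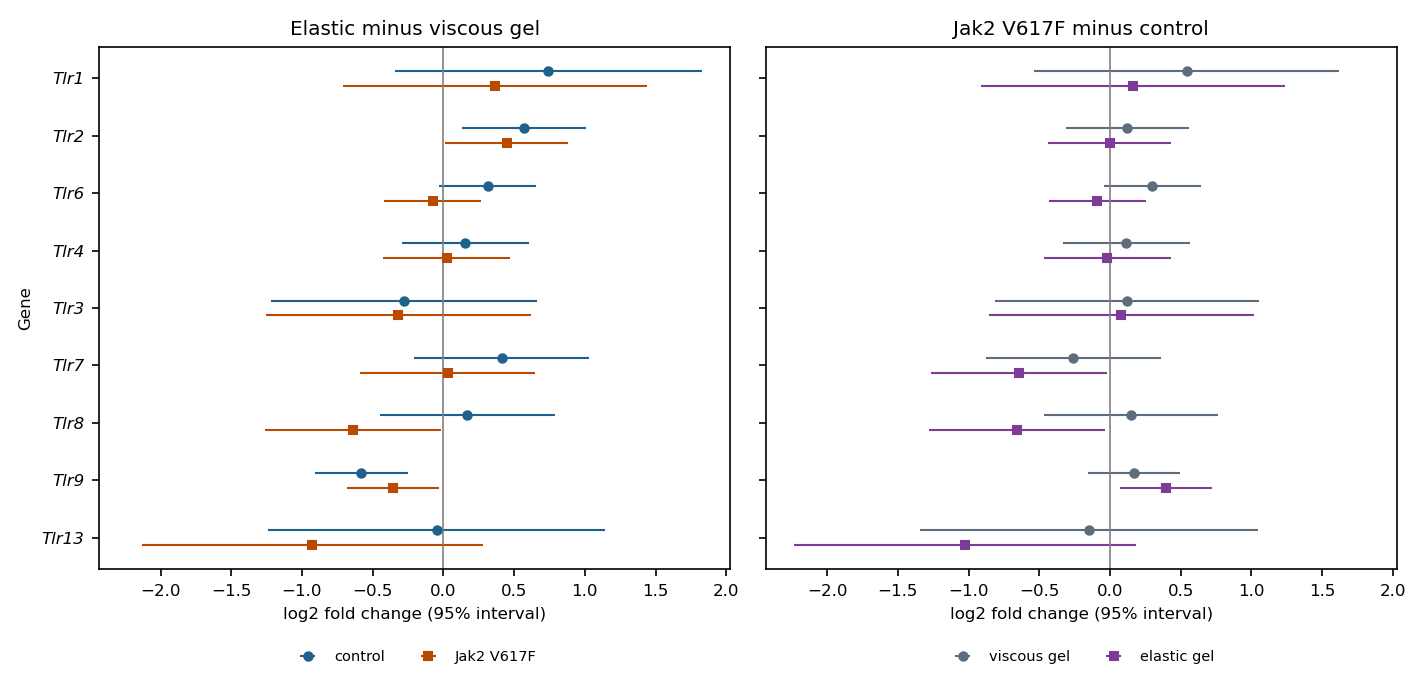
Log2 fold changes with 95% intervals from edgeR for 9 receptors, with elastic minus viscous gel in each genotype on the left and Jak2 V617F minus control in each gel on the right. Tlr5 is left out because its intervals span several log2 units. Intervals that leave out 0 are those of Tlr2, Tlr9 and, in Jak2 V617F cells, Tlr8 on the left, and of Tlr7, Tlr8 and Tlr9 in elastic gel on the right, and these intervals are not adjusted for the number of genes.

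Genotypes were compared next, on the same libraries, so these values are not independent of the gel differences. In viscous gel no receptor was called by edgeR (0 of 10, 0% of IDs), limma-voom or DESeq2 (0.413% of IDs), and 0 of 10 had an unadjusted edgeR p under 0.05, against 7.31% of all IDs. The smallest p was that of Tlr6, at 44.4 (W2) and 35.1 CPM (W1) in control and 48.8 (J1) and 48.9 CPM (J2) in Jak2 V617F cells. Both Jak2 V617F libraries lay above both control libraries, as did those of Tlr2, against 18.6% of IDs. No receptor had both below (19% of IDs). The log2 fold change was 0.30 (SE 0.14, unadjusted p = 0.0780, edgeR adjusted p = 0.664), and 0.14 without both W1 libraries. Without control library W2 in viscous gel it was 0.48 (unadjusted p = 0.0161 by edgeR). Estimates of the other 8 members that were well counted lay between −0.26 (Tlr7) and 0.54 (Tlr1). For Tlr8 the value was 0.15, and without both W1 libraries it was 0.44 (unadjusted p = 0.0255, edgeR adjusted p = 0.383).

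In elastic gel, Tlr7 and its neighbour Tlr8 stood lower in Jak2 V617F than in control cells. Tlr7 was at 98.4 (J1) and 93.4 CPM (J2) in Jak2 V617F and at 175.6 (W1) and 123.8 CPM (W2) in control libraries. Both genotypes were apart, but the control libraries differed 1.42-fold between themselves. The log2 fold change was −0.64 (SE 0.26), or 1.56-fold lower, with an unadjusted p of 0.0442 and an adjusted p of 0.937 by edgeR. For Tlr8, at the levels given above, it was −0.66 (SE 0.26), or 1.58-fold lower (unadjusted p = 0.0409, edgeR adjusted p = 0.937). Both estimates depend on control library W1 in elastic gel: without it they were −0.37 for Tlr7 and −0.30 for Tlr8, and without both W1 libraries −0.37 and −0.30. Without control library W2 in elastic gel they were −0.87 and −0.94.

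Tlr9 stood higher in Jak2 V617F than in control cells in elastic gel (22.7 and 22.5 against 16.5 and 17.9 CPM), with a log2 fold change of 0.40 (SE 0.14), or 1.31-fold. Its unadjusted p was 0.0248 and its adjusted p was 0.937 by edgeR. The value was 0.34 without both W1 libraries. In viscous gel the genotypes overlapped for Tlr9, since control library W2 (27.6 CPM) lay above Jak2 V617F library J1 (27.1 CPM). Tlr13 gave the largest estimate in elastic gel apart from Tlr5, −1.02 on the log2 scale, with a 95% interval of −2.23 to 0.18. Without both W1 libraries it was −0.41 (SE 0.53).

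Altogether 3 of 10 receptors had an unadjusted edgeR p under 0.05 for genotype in elastic gel (4.42% of IDs), 1 higher (1.91%) and 2 lower (2.51%), and 0 of 10 were called (0% of IDs). limma-voom and DESeq2 (0.298% of IDs) called 0 as well. Both Jak2 V617F libraries lay above both control libraries for 1 of 10, Tlr9 (17.2% of IDs). They lay below for 3 of 10, Tlr7, Tlr8 and Tlr13 (18.9% of IDs). Over both gels, no receptor had all 4 Jak2 V617F libraries above (3.5% of IDs) or below (3.39% of IDs) all 4 control libraries. On counts summed per title number, 2 sums against 2, edgeR called 0 of 10 (0% of 15239 IDs), with 0 of 10 at unadjusted p under 0.05 (5.22% of IDs), and limma-voom and DESeq2 (0.696% of IDs) called 0. The smallest p in that comparison was again that of Tlr9, with a log2 fold change of 0.27 (SE 0.12, unadjusted p = 0.0852, edgeR adjusted p = 0.792).

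Neighbouring genes were also set against each other within each library, since such a ratio does not depend on scaling between libraries. The pairs were chosen by position and by known pairing, with the levels already seen. In viscous gel the ratio of Tlr7 to Tlr8 counts was 1.14 (W2) and 1.23 (W1) in control and 0.895 (J1) and 0.904 (J2) in Jak2 V617F cells. In elastic gel it was 1.50, 1.36, 1.44 and 1.43 for the same numbers. All 4 elastic libraries were thus above all 4 viscous ones. The mean ratio was 0.899 ± 0.0061 (SD, n = 2) in Jak2 V617F cells in viscous gel and 1.43 ± 0.0081 in elastic gel. It was 1.18 ± 0.070 and 1.43 ± 0.097 in control cells. Replicates that differed up to 1.57-fold in Tlr7 and 1.56-fold in Tlr8 thus differed little in the ratio, because both genes were high together in the W1 libraries. Of the 36 ratios among the 9 receptors other than Tlr5, 5 separated the gels, as did 3.97% of the ratios of any 2 IDs with at least 500 counts in every library (6958 IDs). The other 4 all had Tlr9 as denominator, which separated the gels by itself. Of the 21 ratios with neither Tlr2 nor Tlr9, 1 did, a share near that of all IDs.

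**Figure D4:**
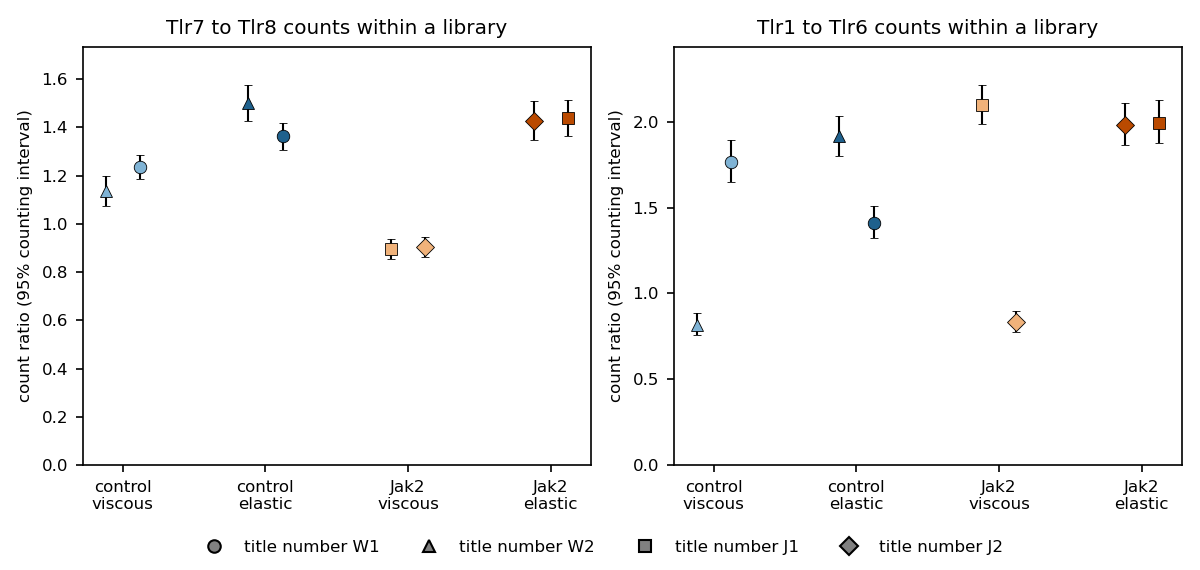
Ratio of the counts of 2 neighbouring receptor genes within each library (linear axes from 0), with exact 95% intervals that cover counting error only. For Tlr7 to Tlr8 the viscous libraries lie at 0.895 to 1.23 and the elastic ones at 1.36 to 1.50, while for Tlr1 to Tlr6 the viscous libraries span 0.819 to 2.10 and overlap the elastic ones at 1.41 to 2.00.

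The ratio of Tlr1 to Tlr6, the other neighbours, did not separate the groups. In viscous gel it was 0.819 (control W2) and 0.834 (Jak2 V617F J2), but 1.76 (control W1) and 2.10 (Jak2 V617F J1). The 4 elastic libraries lay between 1.41 and 2.00. The ratio of Tlr2 to Tlr6 ranged from 4.73 to 6.30 in viscous and from 5.82 to 8.24 in elastic gel. That of Tlr2 to Tlr1 ranged from 2.44 to 6.09 and from 3.05 to 4.13. These are ratios of counts, not of molecules, because transcript length was not used.

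**Figure D5:**
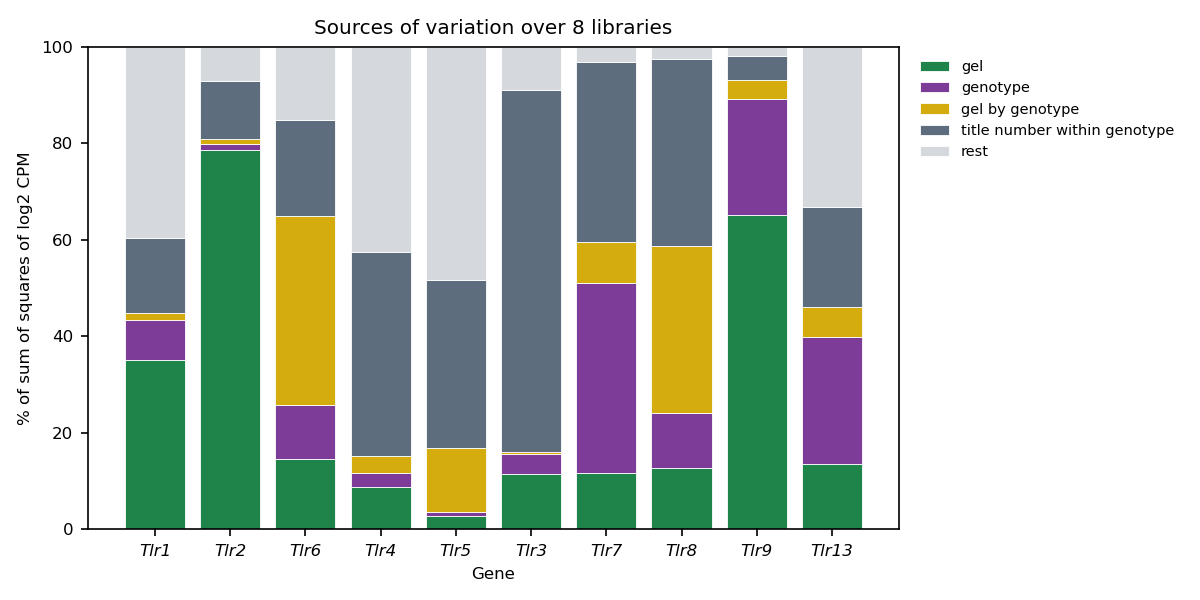
Share of the sum of squares of log2 CPM over 8 libraries, for each receptor, that goes with gel, genotype, their combination, title number within genotype, and the rest. Gel holds 78.6% for Tlr2 and 65.1% for Tlr9, whereas title number holds 75.2% for Tlr3.

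The variation of each receptor over the 8 libraries was split by source as a description. Title number and the rest each have more degrees of freedom than gel, genotype or their combination, which alone raises their shares. Gel took 78.6% for Tlr2 and 65.1% for Tlr9, against a median of 8.06% over all IDs tested. Title number within genotype took 75.2% for Tlr3, with a median of 31.8% over all IDs. For Tlr7 genotype (39.4%) and title number (37.2%) took most. For Tlr8 title number (38.7%) and the combination of gel and genotype (34.7%) did. That combination also took 39.3% for Tlr6, whose total variation was small. For Tlr1, Tlr4, Tlr5 and Tlr13 the rest, which neither group nor title number accounts for, held 33.2% to 48.4%, against a median of 13.4%.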

How the data were processed

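RNA was measured in 8 libraries (4 groups of 2) made with an mRNA kit from cells released from gels by collagenase and alginate lyase. The authors deposited whole counts per Ensembl ID, not normalized. Values in the 8 per-library files are identical to those in the joint table. The tools named are Salmon and DESeq2 and the build GRCm38, per the submitters' processing notes. Not given in the sources used here are their versions, how transcripts became genes and whether strand was used. No ID has a total below 10 counts. Salmon divides reads shared by similar transcripts by estimation.

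IDs were kept with filterByExpr (14785 IDs, at least 99.96% of each library's counts) and scaled by TMM. All 10 members passed, Tlr5 through 2 libraries. edgeR 4.0.16 (R 4.3.3) fitted 4 group means to all 8 libraries, and p-values were adjusted over all IDs, with 0.05 as the threshold. Genotype was also tested on counts summed per title number. SE were derived from the test statistic, with a prior count of 2 in log2 CPM. Full statistics are given for a member with unadjusted p under 0.05 or the smallest p of a comparison. In the averaged gel comparison the other members have an estimate with its SE or interval, and not always a p-value. The ratios, the per-number differences and the split of variation were added after the values were seen. Alternatives were other scalings and filters, DESeq2 1.42.0, limma-voom (limma 3.58.1), libraries left out and the title number as a block. The members and lists were chosen with earlier results of these data known. Tests were tried on simulated counts drawn independently for each library, so that trial does not cover deviations shared by a title number. Chi-square divided by its degrees of freedom was 20.5 to 282.3 between replicates, well above counting noise, so no library was taken for a copy of another. Gene positions come from RefSeq (GRCm38.p6). Figures used matplotlib 3.10.9 (Python 3.11.15).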

Additional observations from a re-analysis of the deposited data

How the results depend on the processing

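Of 115 alternative counts of receptors called, 113 were 0, as in the comparisons above. The exceptions were DESeq2 for the gel difference over both genotypes (2, Tlr2 with a log2 fold change of 0.52 and Tlr9 with −0.46) and the summed genotype comparison without the sum of control number W2 (2, Tlr7 and Tlr8, both lower in Jak2 V617F cells). With 1 sum left out the latter count ranged from 0 to 2. Without W2 only W1 stood for control cells, and 2664 of 16004 IDs were called, and the cause was not tested. Over 17 alternatives the averaged gel difference of Tlr2 stayed between 0.41 and 0.60 (edgeR, DESeq2 or limma adjusted p 0.0405 to 1.00) and that of Tlr9 between −0.52 and −0.41 (0.0374 to 1.00). In that comparison 3 receptors changed sign. Tlr4 ranged from −0.013 to 0.18, Tlr3 from −0.52 to 0.025 and Tlr5 from −0.77 to 2.49 with 1 library left out, and Tlr5 was −1.27 without both W1 libraries. The Tlr1 estimate ran from 0.30 (without Jak2 V617F J2 in viscous gel) to 0.96 (without J1), and that of Tlr13 from −0.83 to −0.042. Where a group kept 1 library, its spread was taken from the other groups.

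With the title number as a fixed replicate block, edgeR gave 0.50 for Tlr2 (SE 0.10, adjusted p = 0.186) and −0.46 for Tlr9 (SE 0.085, adjusted p = 0.156) over both genotypes, and called 0 of 10 receptors in each gel comparison. As a random block (correlation 0.38) limma-voom also called 0. In Jak2 V617F cells the gel difference of Tlr8 was −0.64 with either block. Its unadjusted p was 0.0024 by edgeR (fixed block, adjusted p = 0.406) and 0.0103 by limma-voom (random block, adjusted p = 0.650). Libraries sharing a number had deviations correlated at 0.53 (control) and −0.089 (Jak2 V617F), which does not settle whether the number marks a pairing. The main fits used no block because the labels do not say what the number marks. Under other scalings 5 group means moved by more than the SD of their 2 libraries, among them Tlr2 in control cells in viscous gel (220.1 to 225.1 CPM).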
